A study of Homo sapiens with 135 samples.

Results

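Pluripotent-stage TET1 and TET2 sites are regions that carried peaks of both proteins in undifferentiated cells and no peak of either protein 4 days into neural induction. They were chosen by the peak calls themselves: a distinct region of the day 0 DMSO TET1 list was a member when it overlapped a day 0 DMSO TET2 region by at least 1 bp and no region of the day 4 DMSO TET1 and TET2 lists. Of the 8577 TET1 regions called in day 0 DMSO cells, 1238 (14.4%) met the rule. They are called pluripotent-stage sites below, after the day on which they were called. The name says nothing about the state of the cells, which peak lists cannot check, since they hold no marker expression. Presence on day 0 and absence on day 4 in those 4 lists are fixed by the selection and are not results. The other 32 lists were not used to choose the sites and are followed below.

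H9 cells, a widely used line of human embryonic stem cells, were maintained undifferentiated (day 0) and carried through neural induction with dual SMAD inhibition to day 4 and day 9. On each day the study held cells labelled WT, with no genetic change or compound named, cells given the vehicle DMSO, and cells given BPK25 at 20 µM. The treatment protocol names BPK-25 in the induction medium, and when the day 0 cells received it is not given in the sources used here. Chromatin immunoprecipitation sequencing was carried out with antibodies to CTCF and MBD3 in all of these cells, and to TET1, TET2 and TET3 in the DMSO and BPK25 cells, with antibodies specified for CTCF, MBD3 and TET1. Each of the 36 lists was called on 3 replicates pooled against a control. The labels do not say that the replicates were separate cultures, and pooling leaves each list as 1 value without replicate error.

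TET1, TET2 and TET3 are dioxygenases that oxidise 5-methylcytosine, the first step of active DNA demethylation. TET1 and TET2 are the family members known to be expressed in embryonic stem cells. MBD3 is a core subunit of the NuRD complex, which joins nucleosome remodelling to histone deacetylation. CTCF is a zinc-finger protein that marks chromatin loop anchors and boundaries, and methylation of its motif can prevent its binding.

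Lists differed in length from 321 to 84203 regions, with a median of 15353, and the share of sites with a peak was therefore always read against the share over all 8577 day 0 DMSO TET1 regions in the same list. The files state no sequencing depth. Pileups recovered from the deposited fold enrichment and p-value had a median of 10.0 fragments over a local background of 1.37 in the day 0 DMSO TET1 list, 9.00 over 1.19 in the day 4 DMSO TET1 list and 9.00 over 1.13 in the day 4 DMSO TET2 list. The day 4 WT and DMSO lists stood apart from those of day 0 in some stretches where no antibody had any region, several of them near centromeric gaps. Those stretches are described with the genomic positions below, and shares are given there with and without the windows that hold many sites.

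On day 0 the sites were among the stronger TET1 regions. The rule used these lists, so the values are a description. Their TET1 −log10 q, the significance that the authors' peak caller assigned to a peak, had a median of 7.62 (quartiles 4.28 and 13.9, maximum 2022), and 760 sites (61.4%) lay in the top 25% of the TET1 list. Their fold enrichment, the summit pileup over the local background, had a median of 5.55. In the TET2 list the same sites had a median −log10 q of 4.20 and a median fold enrichment of 4.88. A −log10 q of at least 5 in both lists was reached by 458 sites (37.0%). At sites with a recoverable pileup the median was 13.0 TET1 fragments over a background of 1.94 and 12.0 TET2 fragments over a background of 1.76.

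The TET1 and TET2 peaks of a site overlap by the rule. Their summits were a median of 53 bp apart, and at 807 sites (65.2%) within 100 bp. Overlap of regions this narrow itself brings summits near each other, so these distances are a description. TET2 covered a median of 78.8% of the site. The sites had a median width of 324 bp (quartiles 207 and 506), and 30.9% of them held several summits. The second widest, chr16:46404013-46407087 (hg19), spanned 3075 bp with 10 summits, and chrX:152654844-152657672 spanned 2829 bp with 10 summits.

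Few sites had a day 4 peak just beyond their edge. The nearest day 4 DMSO TET1 or TET2 region lay a median of 12240 bp away (quartiles 4133 and 53152) for the 1228 sites on a chromosome or contig with such a region. It lay within 100 bp at 4 sites, within 1000 bp at 110 (8.89%) and within 10000 bp at 551 (44.5%). The site nearest to the edge of the rule, chr7:390734-390907 with a TET1 −log10 q of 5.74, was 9 bp from a day 4 region, and chr7:2099968-2100228 was 37 bp away. Just outside the rule were chr4:7132864-7133021, with a −log10 q of 3.03 and a day 4 overlap of 8 bp, and chr11:117745824-117745969, with an overlap of 15 bp.

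Sites were compared with 2 other sets of day 0 DMSO TET1 regions. Retained sites, 602 regions (7.02%), had a day 0 TET2 peak and a day 4 DMSO TET1 or TET2 peak. TET1-only sites, 5369 regions (62.6%), had neither a day 0 TET2 peak nor a day 4 peak of either protein. The remaining 1368 regions (15.9%) had no day 0 TET2 peak and a day 4 peak. Retained sites were wider (median 463 bp) and had a median TET1 −log10 q of 10.3, and TET1-only sites had medians of 169 bp and 2.92. Peak strength on day 0 thus differed between the sets beside the property that defined them, and its part in the comparisons below was not tested.

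TET3, the TET protein better known from oocytes, zygotes and neural cells, had a peak at nearly all of the sites on day 0. In DMSO cells 1155 of 1238 sites (93.3%, 95% interval 91.8 to 94.6) overlapped a TET3 region, beside 60.2% of all day 0 TET1 regions, 98.5% of retained sites and 47.1% of TET1-only sites. TET3 peaks at the sites ranked high in their own list, at a median percentile of 95.2 by −log10 q. CTCF and MBD3 had peaks at a minority. In DMSO cells CTCF was called at 282 sites (22.8%, beside 7.08% of all TET1 regions) and MBD3 at 216 (17.4%, beside 5.42%). In WT cells CTCF was called at 188 sites (15.2%, beside 5.47%) and MBD3 at 155 (12.5%, beside 4.76%). The shares in WT cells were lower than in DMSO cells for both proteins, although the WT list was the shorter for CTCF (976 and 1843 regions) and the longer for MBD3 (12093 and 7511), and the difference was not tested. Of the sites with CTCF in DMSO cells, 152 of 282 (53.9%) had it in WT cells too, beside 52.2% over all day 0 TET1 regions.

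**Figure D1:**
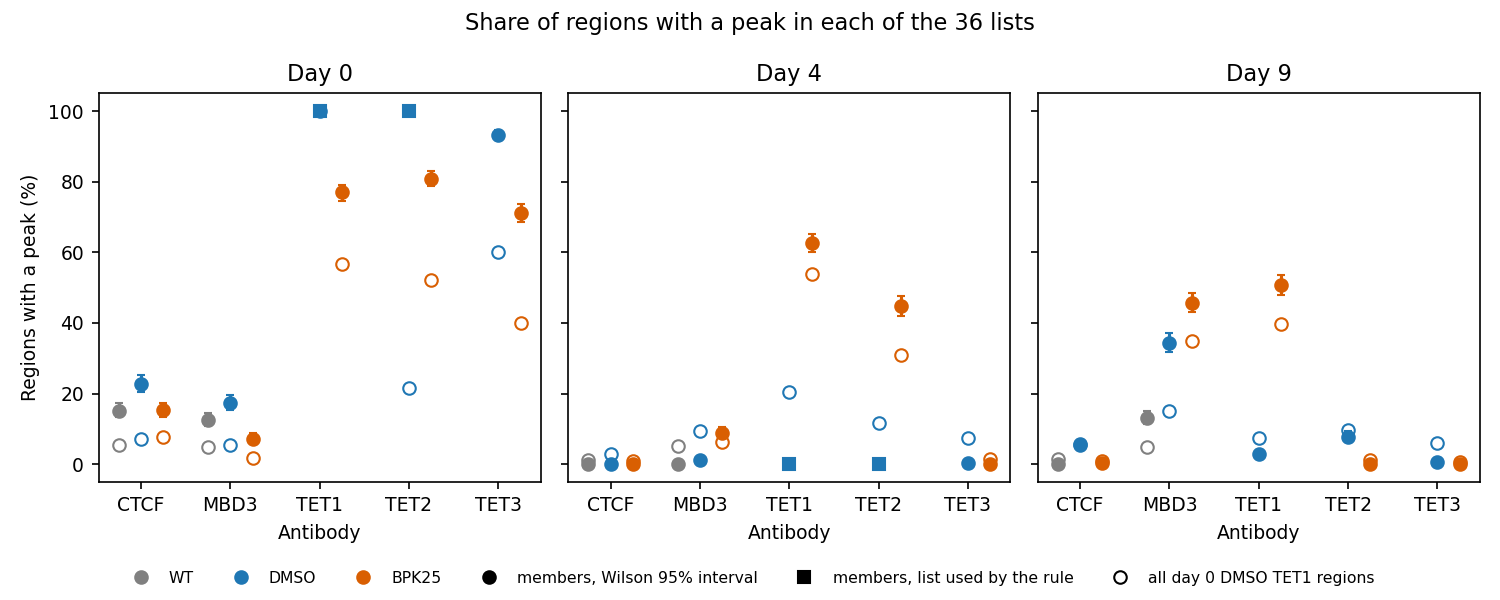
Share of regions with a peak (vertical axis, percent) by antibody, in a panel per day, with WT, DMSO and BPK25 lists in separate colours. Filled points are the 1238 pluripotent-stage sites (members) with Wilson 95% intervals, filled squares the 4 lists that the rule used, and open circles all 8577 day 0 DMSO TET1 regions. The sites lie above the open circles for each antibody on day 0, near 0 in the WT and DMSO lists of day 4, and at 62.7% and 50.8% in the BPK25 TET1 lists of days 4 and 9.

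CTCF and MBD3 peaks often coincided on day 0. MBD3 was called at 174 of the 282 sites with CTCF in DMSO cells (61.7%) and at 42 of the 956 without it (4.39%). Over all day 0 TET1 regions these shares were 50.4% and 1.99%. The 324 sites (26.2%) with either protein had a median TET1 −log10 q of 16.2, against 6.23 for the 914 others. At 875 sites (70.7%) TET3 was the only further protein called in day 0 DMSO cells. That share was not computed over all day 0 TET1 regions, of which 60.2% had TET3, 7.08% CTCF and 5.42% MBD3.

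BPK25 cells on day 0 had TET peaks at most of the sites. TET1 was called at 953 sites (77.0%, beside 56.7% of all day 0 DMSO TET1 regions), TET2 at 1002 (80.9%, beside 52.2%) and TET3 at 881 (71.2%, beside 40.0%). The BPK25 lists were far longer than the DMSO lists, with 72148 against 8577 regions for TET1 and 31522 against 3485 for TET2. Cut to the DMSO lengths they covered 54.8% of the sites for TET1 (beside 34.4%) and 51.9% for TET2 (beside 25.8%). All 3 TET proteins were called together in the whole lists at 715 sites (57.8%, beside 33.4%). CTCF was called at 189 sites (15.3%, beside 7.61%) and MBD3 at 89 (7.19%, beside 1.89%), both below the DMSO shares. At 1296 regions each, CTCF was called at 15.3% of the sites under BPK25 and 16.2% under DMSO. The BPK25 MBD3 list held 590 regions and the DMSO list 7511. With both cut to their 590 strongest regions, MBD3 was called at 7.19% of the sites under BPK25 and 4.77% under DMSO, so the order turned at equal length. For TET3 the order held at 15244 regions each, with 71.2% under BPK25 and 88.4% under DMSO.

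On day 4 the sites were nearly empty in every WT and DMSO list, not only in the TET1 and TET2 lists that chose them. Across the 5 other WT and DMSO lists of that day, 20 of 1238 sites (1.62%) had any peak. MBD3 was called at 15 sites in DMSO cells (1.21%, beside 9.36% of all day 0 TET1 regions) and at 2 in WT cells (0.162%, beside 5.21%). TET3 was called at 3 sites in DMSO cells (0.242%, beside 7.29%), CTCF at 2 (0.162%, beside 2.76%), and CTCF in WT cells at 1 (0.0808%, beside 1.22%). The day 4 DMSO lists held 46132 regions for MBD3, 33121 for TET3 and 20675 for CTCF. The WT lists held 51109 for MBD3 and 18222 for CTCF, and the part of list length was not tested. TET1-only sites, which also lacked day 4 TET1 and TET2, had shares of 2.09% for MBD3, 1.08% for TET3 and 0.261% for CTCF in the same DMSO lists. Retained sites had 29.1%, 18.1% and 9.47%.

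BPK25 cells on day 4 had TET1 and TET2 peaks at many of the sites. TET1 was called at 776 sites (62.7%, 95% interval 60.0 to 65.3, beside 53.9% of all day 0 TET1 regions) and TET2 at 554 (44.7%, beside 30.9%). The DMSO shares in this pair are 0 by the rule, so no difference was tested. The BPK25 TET1 list was long, at 84203 regions, and cut to the 45019 regions of the DMSO list it still covered 53.9% of the sites. With a −log10 q of at least 5 the BPK25 shares were 40.2% for TET1 (beside 31.0%) and 26.2% for TET2 (beside 15.9%). Over all day 0 TET1 regions the TET1 shares at equal length were 45.2% under BPK25 and 20.5% under DMSO. TET1 peaks of BPK25 cells at the sites had a median of 24.0 fragments over a local background of 6.53, against 11 over 2.22 in the whole list. They ranked at a median percentile of 92.9 by −log10 q, while their median fold enrichment of 3.59 was below the 3.76 of the list.

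The other BPK25 lists of day 4 did not share that pattern. MBD3 was called at 109 sites (8.80%, beside 6.18%). CTCF was called at 2 sites (0.162%, beside 1.00%) and TET3 at 2 (0.162%, beside 1.42%). Of the 776 sites with day 4 TET1 under BPK25, 513 (66.1%) also had TET2, beside 53.2% over all day 0 TET1 regions. TET1 was called on day 4 at 735 of the 953 sites with day 0 TET1 under BPK25 (77.1%) and at 41 of the 285 without it (14.4%), beside 78.6% and 21.5% over all day 0 TET1 regions.

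On day 9 MBD3 was the protein most often called at the sites in control cells. In DMSO cells 426 sites (34.4%, 95% interval 31.8 to 37.1) had an MBD3 peak, beside 15.0% of all day 0 TET1 regions, and in WT cells 164 did (13.2%, beside 4.87%). Of the 164 sites in WT cells, 151 (92.1%) were also called in DMSO cells, beside 84.9% over all day 0 TET1 regions. These were 151 of the 426 sites in DMSO cells, beside 355 of 1283 over all day 0 TET1 regions. Most of the DMSO sites thus had no WT peak, and the WT list was the shorter (29341 and 44052 regions). The DMSO share was 18.1% (beside 6.39%) with a −log10 q of at least 5 and 11.1% (beside 3.40%) in the 5000 strongest regions. With 50% reciprocal overlap, which chose the sites anew (980 sites), it was 18.7%. That share was not computed over all day 0 TET1 regions. MBD3 had been called at 15 of the sites in the DMSO list of day 4, which was of similar length (46132 regions, and 44052 on day 9). CTCF was called at 66 sites in DMSO cells (5.33%, beside 5.65%) and at 1 in WT cells (0.0808%, beside 1.33%).

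The TET proteins were rarely called again at the sites in day 9 DMSO cells. TET1 had a peak at 35 sites (2.83%, 95% interval 2.04 to 3.91, beside 7.28% of all day 0 TET1 regions), TET2 at 97 (7.84%, beside 9.64%) and TET3 at 9 (0.727%, beside 6.00%). Retained sites had 19.3%, 33.6% and 14.6%. Any TET protein was called at 112 sites (9.05%). Of the 426 sites with MBD3, 345 (81.0%) had none, so TET calls were more frequent there than over all of the sites. These 2 shares were not computed over all day 0 TET1 regions. At a minimum of 5 in −log10 q the day 9 TET1 share was 0.565% (beside 2.15%), and the 35 sites had a median percentile of 41.0 in that list.

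TET1 and TET3 were called together on day 9 in DMSO cells at 5 sites. At chr2:5162737-5162967 the TET1 −log10 q was 44.7 on day 0 (fold enrichment 12.1) and 21.1 on day 9 (fold enrichment 3.61), and TET3 had 73.2 and 25.2. This site had peaks in 20 of the 32 followed lists. At chr9:35913384-35914382, a site of 999 bp, the TET1 −log10 q was 19.1 on day 0 and 14.5 on day 9, and MBD3 in DMSO cells had 6.87 and 60.7. At chr4:190155037-190155202 the TET1 −log10 q was 79.2 on day 0 and 65.4 on day 9, and at chr14:98042085-98042418 it was 10.6 and 2.07. Values of different lists follow each list's own depth and are set side by side only. None of these 4 sites had a day 4 WT or DMSO peak of any antibody.

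Under BPK25 on day 9, TET1 and MBD3 were called at about equal numbers of sites. TET1 had a peak at 629 sites (50.8%, beside 39.6% of all day 0 TET1 regions) and MBD3 at 566 (45.7%, beside 34.8%). MBD3 was called at 464 of the 629 sites with TET1 (73.8%) and at 102 of the 609 without (16.7%), and over all day 0 TET1 regions at 67.8% and 13.3%. With a −log10 q of at least 5 the shares were 22.8% for TET1 (beside 16.3%) and 19.1% for MBD3 (beside 14.0%). At 4-fold enrichment, with the sites chosen anew, they were 15.0% and 5.13%. With TET1 lists cut to 24572 regions each, TET1 was called at 45.2% of the sites under BPK25 and 2.83% under DMSO, and over all day 0 TET1 regions at 33.8% and 7.28%. CTCF was called at 3 sites (0.242%, beside 1.00%), TET3 at 2 (0.162%, beside 0.700%) and TET2 at 0 of 1238 (0%, beside 1.25%). The TET3 list of these cells held 321 regions and the TET2 list 1928. Retained sites had 6.81% for TET3 and 7.64% for TET2 in these lists, and the part of list length was not tested.

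MBD3 calls of day 9 under the 2 treatments were compared site by site, without a test. Of the 426 sites with MBD3 under DMSO, 151 (35.4%) had it under BPK25, and of the 812 without it under DMSO, 415 (51.1%) did. Over all day 0 TET1 regions these shares were 37.3% and 34.4%. MBD3 under DMSO was called on day 9 at 216 of the 776 sites with day 4 BPK25 TET1 (27.8%) and at 210 of the 462 without (45.5%), and over all day 0 TET1 regions at 13.8% and 16.3%.

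TET1 under BPK25 was called on all 3 days at 556 sites (44.9%, beside 32% of all day 0 TET1 regions) and on none at 234 (18.9%, beside 32%). On day 9 it was called at 566 of the 776 sites with TET1 on day 4 (72.9%) and at 63 of the 462 without (13.6%), beside 63.4% and 11.7% over all day 0 TET1 regions. The most frequent combination of TET1, TET3 and MBD3 calls was day 0 TET3 in DMSO cells with BPK25 TET1 on all 3 days and no day 9 DMSO MBD3, at 431 sites (34.8%). Its share over all day 0 TET1 regions was not computed. Sites with CTCF or MBD3 in day 0 DMSO cells had day 4 BPK25 TET1 less often, at 150 of 324 (46.3%), than the others, at 626 of 914 (68.5%). Over all day 0 TET1 regions the order was the opposite, at 69.5% and 52.4%. These are descriptions without a test, since sites of 1 list are not replicates.

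**Figure D2:**
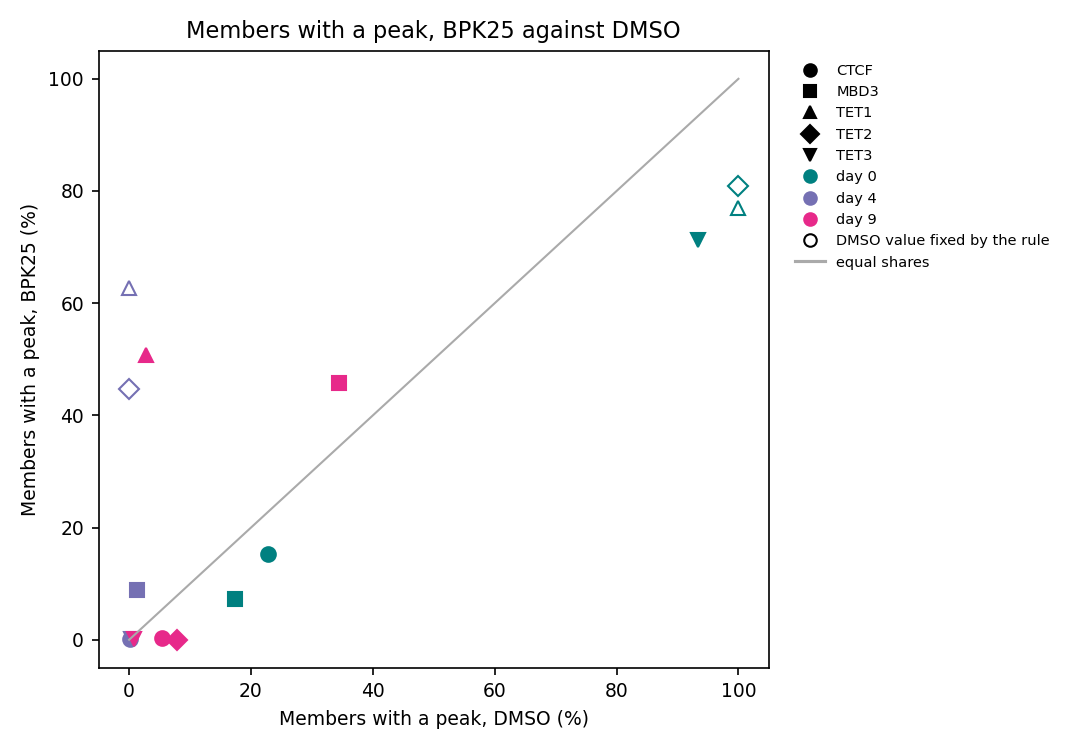
Percent of the 1238 pluripotent-stage sites (members) with a peak in BPK25 cells (vertical axis) against DMSO cells (horizontal axis), 1 point per antibody (shape) and day (colour), with a line of equal shares. Open points have a DMSO value fixed by the rule. Day 9 TET1 stands farthest above the line among the filled points, at 50.8% against 2.83%, and day 0 TET3 farthest below it, at 71.2% against 93.3%. Over all day 0 DMSO TET1 regions, which are not drawn, these shares were 39.6% against 7.28% and 40.0% against 60.2%.

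Averaged over antibodies, BPK25 did not shift the sites in a single direction. Over the 11 antibody and day pairs with no list in the rule, the share under BPK25 minus DMSO had a mean of 1.22 ± 17.9 percentage points (SD, n = 11 pairs), higher in 3, lower in 7 and equal in 1 (exact two-sided sign-flip permutation test of the mean, p = 0.869). With the lists of each pair at equal length, BPK25 was higher in 5 pairs, lower in 4 and equal in 2 (mean 3.94 points, p = 0.480 by the same exact test). The pairs ranged from 48.0 points for day 9 TET1 to -22.1 for day 0 TET3. MBD3 was higher under BPK25 on day 9 (11.3 points) and day 4 (7.59) and lower on day 0 (-10.3). CTCF was lower on day 0 (-7.51) and day 9 (-5.09), and TET2 on day 9 (-7.84). Shares over all day 0 TET1 regions, under BPK25 and then DMSO, were 39.6% and 7.28% for day 9 TET1. For day 0 TET3 they were 40.0% and 60.2%. MBD3 had 34.8% and 15.0% on day 9, 6.18% and 9.36% on day 4, and 1.89% and 5.42% on day 0. CTCF had 7.61% and 7.08% on day 0 and 1.00% and 5.65% on day 9, and TET2 1.25% and 9.64% on day 9. Differences over all regions were not tested. The mean difference at the sites changed sign without day 9 (-5.40) and without TET1 (-3.46), and p missed the threshold in each of these settings. A miss of this size over 11 unlike pairs does not show that the treatments acted alike.

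The sites differed from retained sites in the lists that the rule did not use. The share of pluripotent-stage minus retained sites had a mean of -14.6 ± 7.93 percentage points over 11 DMSO lists and was lower in 11 of 11 (exact two-sided sign-flip permutation test, p = 0.000977, the smallest that 11 lists allow). Without regions that have peaks in at least 18 lists, which hold 23.6% of retained sites, the mean was -4.95 points and lower in 10 of 11 (p = 0.00781, exact permutation test). With a −log10 q of at least 5 in the followed lists it was -7.70, and with their 5000 strongest regions -8.86. Without the day 4 lists it was -13.1 points and lower in 8 of 8 (p = 0.00781, exact permutation test). The gap was widest for day 4 MBD3 (-27.9 points) and day 9 TET2 (-25.7), and narrowest for day 9 MBD3 (-3.96) and day 0 TET3 (-5.21). Lists of the same day may share an input, so the 11 values are not fully independent. MBD3 was called at 34.4% of the sites and 38.4% of retained sites on day 9, with overlapping intervals, and at 1.21% and 29.1% on day 4.

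Against TET1-only sites the sites had more peaks of CTCF, MBD3 and TET3 on day 0 and of CTCF, MBD3 and TET2 on day 9, and shares within 1 point of them in the other DMSO lists. The mean difference was 10.6 ± 15.3 points over 11 DMSO lists, higher in 7 and lower in 4 (exact two-sided sign-flip permutation test, p = 0.0293). It was largest for day 0 TET3 (46.2 points), day 9 MBD3 (25.6), day 0 CTCF (21.8) and day 0 MBD3 (16.4). The 4 lower lists were day 4 MBD3 (-0.874), day 4 TET3 (-0.838), day 9 TET3 (-0.707) and day 4 CTCF (-0.0992). The call was lost without day 0 (3.98 points, p = 0.234), without day 9 (13.8, p = 0.25), without CTCF (11.4, p = 0.117), without MBD3 (9.38, p = 0.109), without TET2 (11.2, p = 0.0586), and with peaks of at least 4-fold enrichment (6.60, p = 0.085), each by the same exact permutation test.

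**Figure D3:**
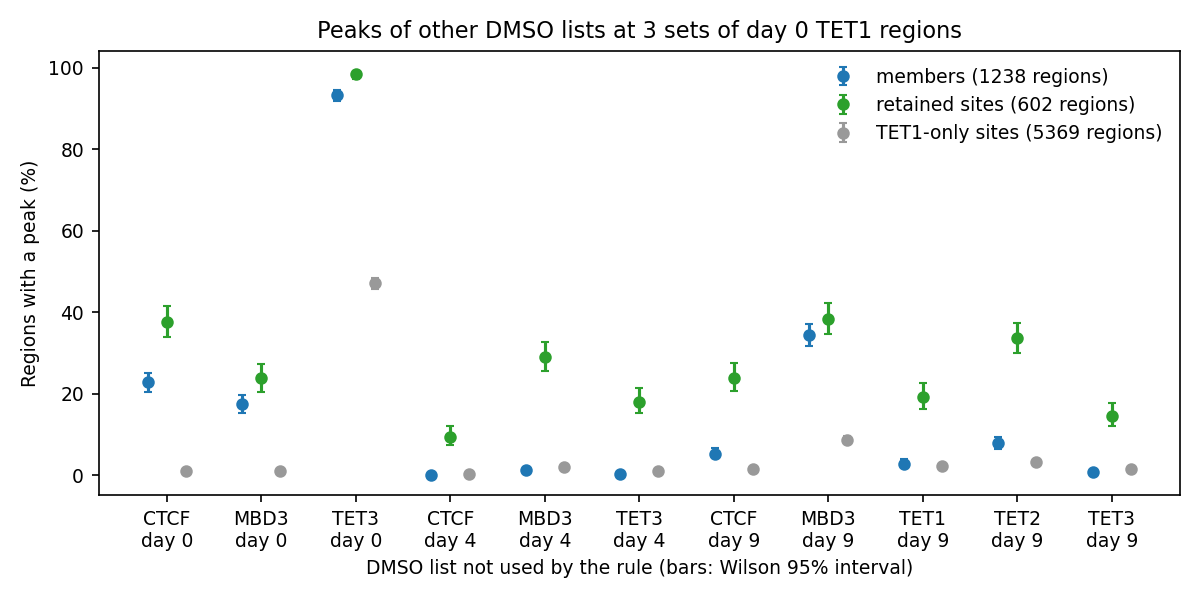
Percent of regions with a peak (vertical axis) in the 11 DMSO lists that the rule did not use (horizontal axis), for the 1238 pluripotent-stage sites (members), 602 retained sites and 5369 TET1-only sites, with Wilson 95% intervals for counting error. Retained sites are highest in each list, and the pluripotent-stage sites come close to them for day 9 MBD3 (34.4% and 38.4%).

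Each site had a peak in a median of 7 of the 32 followed lists (quartiles 5 and 8.75), and 8 was the most frequent number, at 254 sites. No peak in any followed list was found at 13 sites (1.05%), and none in any list after day 0 at 163 (13.2%). In the WT and DMSO lists of days 4 and 9, 758 sites (61.2%) had no peak, and 595 of these (78.5%) had a peak in a day 4 or day 9 BPK25 list. TET1 was called under BPK25 at 526 of the 758 on day 4 (69.4%) and at 440 on day 9 (58.0%). Over all day 0 TET1 regions, whatever their control calls, these BPK25 lists had 53.9% and 39.6%. In contrast 473 sites (38.2%) had a peak in a day 9 WT or DMSO list, 439 of them an MBD3 peak. The counts of sites in this paragraph were not computed over all day 0 TET1 regions, so they do not set the sites apart.

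**Figure D4:**
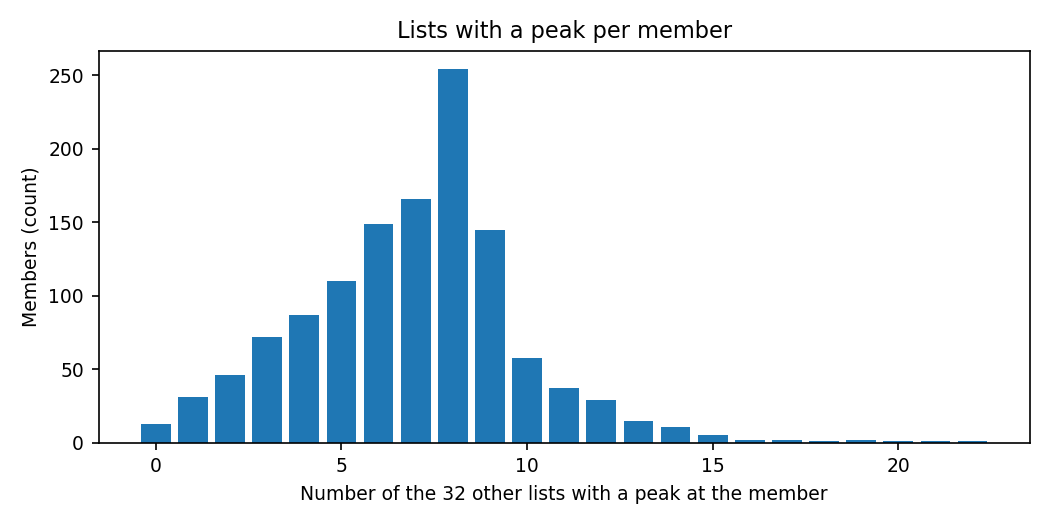
Number of pluripotent-stage sites (members, vertical axis) by the number of the 32 followed lists that have a peak there (horizontal axis). The count is highest at 8 lists (254 sites), with 13 sites at 0 and 1 site at 22.

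Among the sites with peaks in most lists, chr18:666958-667614 had 22. It was among the 20 sites with day 4 control peaks, here CTCF in WT cells (−log10 q 6.71) and DMSO cells (14.6), and MBD3 in DMSO cells (13.8). On day 0 it carried TET1 at 21.9, TET2 at 7.40 and TET3 at 47.4 in DMSO cells. Under BPK25 TET1 was called there on day 0 (31.2), day 4 (29.2) and day 9 (7.41). The nearest day 4 DMSO TET1 or TET2 region was 10459 bp away. The site chr4:190156157-190156593 had peaks in 21 lists, among them TET3 in day 4 DMSO cells (−log10 q 3.66). At the other extreme, chr1:21266390-21266645 had a TET1 −log10 q of 10.2 (fold enrichment 8.63) and a TET2 −log10 q of 2.62, and no peak in a followed list, and chr4:31765335-31765535 had 6.26 and 2.21.

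The sites were unevenly spread over the genome. Chromosome 2 held 147 of them (11.9%), beside 7.82% of all day 0 TET1 regions. Then came chromosomes 16 (95, 7.67% beside 5.67%), 10 (93, 7.51% beside 5.60%) and 7 (92, 7.43% beside 6.04%). Chromosome 4 held 78 (6.30% beside 4.56%). Chromosome 1 held 86, a smaller share of the sites (6.95%) than of all day 0 TET1 regions (11.3%). Within 1 Mb of the longest stretch of a chromosome without any peak, which on chromosomes 16, 4, 2, 10 and 7 is the centromeric assembly gap, lay 208 sites (16.8%), beside 4.14% of all day 0 TET1 regions, 1.83% of retained sites and 2.33% of TET1-only sites. Within 5 Mb of the outermost peaks of a chromosome lay 36.3% of the sites, 35.4% of all TET1 regions and 55.5% of retained sites. Unplaced or haplotype contigs held 27 sites (2.18%, beside 1.00%). Another site lay within 10 kb at 397 sites (32.1%). Among all day 0 TET1 regions, 2746 of 8577 had another such region within 10 kb, about the same share. Retained sites had another retained site that near at 13.1%, and TET1-only sites another of their set at 17.7%. The sets differ in size, and its part in these shares was not tested. Regions with peaks in at least 18 of the 36 lists held 1.05% of the sites and 23.6% of retained sites.

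In windows of 1 Mb, 549 windows held a site, 321 of them a single site. The 46 windows with at least 5 sites held 467 sites (37.7%), and this grouping was made after the positions were seen. Their median TET1 −log10 q was 11.1, against 6.45 at the 771 sites outside, while the fold enrichments were 5.66 and 5.54. Windows are named here by the span from their first to their last site. The fullest were chr16:46385929-46500228 with 46 sites, which starts 14 bp from a peak-free stretch, and chr4:49093858-49659770 with 46 sites, which ends 55 bp from another. Next came chr10:42356385-42598233 with 35, chr2:90371710-90393391 with 23 and chr2:91595173-91614884 with 21.

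Several of these windows were empty of all antibodies on day 4 in control cells. The chromosome 16 window held 326 regions over the 7 WT and DMSO lists of day 0, 0 over the 7 of day 4 and 73 over the 7 of day 9. The chromosome 4 window held 298, 0 and 4, and the chr2:90371710-90393391 window 143, 0 and 35. Of the 46 windows, 8 had no region of any antibody in that span in the day 4 WT and DMSO lists. These held 183 sites (14.8%). Outside such a span, a day 4 DMSO TET1 or TET2 region lay 280578 bp from chr16:46404013-46407087. Not all of the 8 lay beside a centromeric gap: chrX:30807569-30824782, with 6 sites, was 27755961 bp from the longest peak-free stretch of its chromosome. Absence of TET1 and TET2 at the 183 sites came with absence of CTCF, MBD3 and TET3 calls over the whole span. The former cannot be told apart there from the latter. Other full windows had many day 4 regions beside the sites: chr10:134172011-134996510, with 13 sites, held 235 regions on day 0 and 280 on day 4, and chr13:114267888-114965677, with 13 sites, held 170 and 203.

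**Figure D5:**
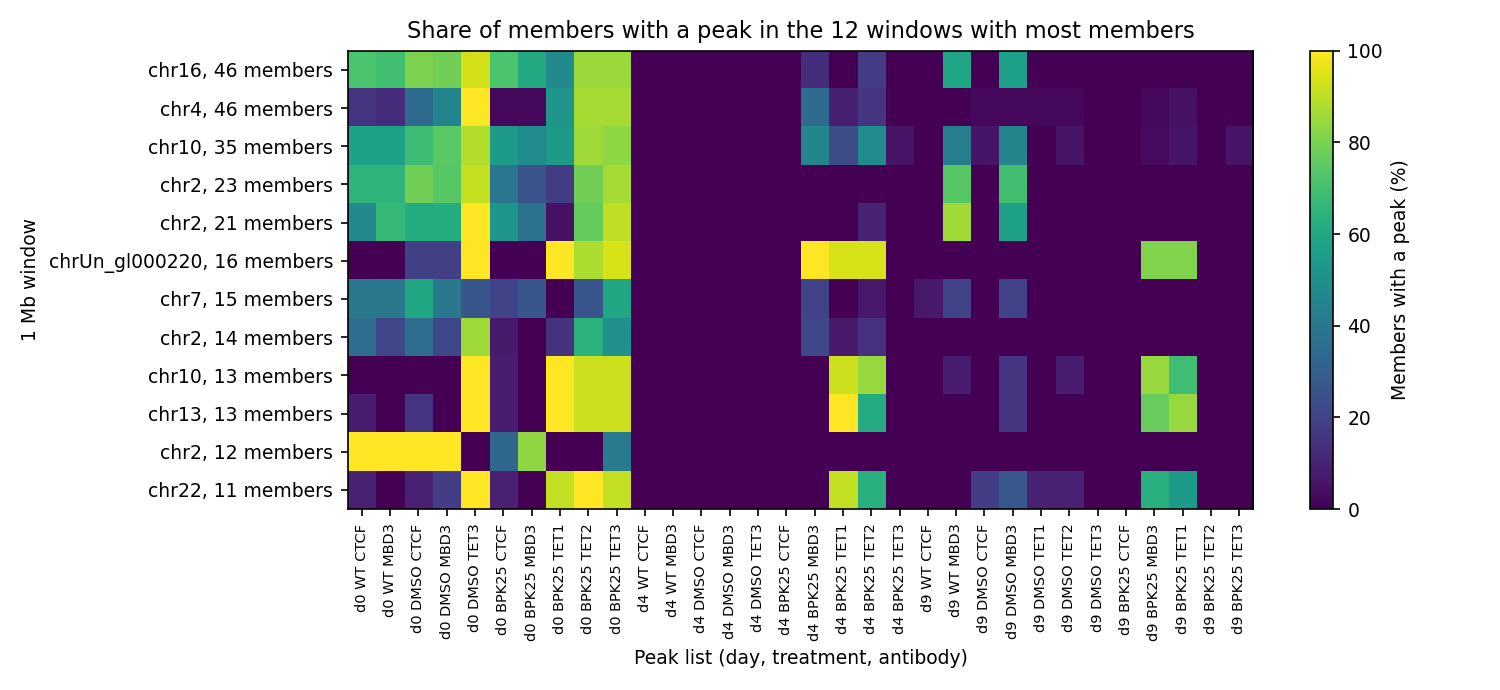
Percent of the pluripotent-stage sites (members) with a peak (colour scale) in the 12 windows of 1 Mb with most sites (rows, with their number of sites), for each of the 32 followed lists (columns). Columns of the WT and DMSO lists of day 4 are dark in all 12 windows, while MBD3 of day 9 WT and DMSO cells is bright in the chromosome 16 window and in the upper chromosome 2 windows.

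The windows also differed from the dispersed sites in the followed lists. CTCF in day 0 DMSO cells was called at 37.7% of the 467 sites in full windows and at 13.7% of the 771 others, and MBD3 at 31.9% and 8.69%. TET1 under BPK25 went the other way, at 66.6% and 83.3% on day 0, 51.8% and 69.3% on day 4, and 40.9% and 56.8% on day 9. The full windows were unlike each other in these TET1 calls. On day 4 they were at 0 of 46 sites in the chr16:46385929-46500228 window and 4 of 46 in the chr4:49093858-49659770 window. They were at 12 of 13 sites in chr10:134172011-134996510 and 13 of 13 in chr13:114267888-114965677. The lower share over the 467 sites thus does not hold for each full window. Day 9 MBD3 in DMSO cells was called at 29.6% of the 467 sites and 37.4% of the 771 others. TET3 of day 0 DMSO cells was at 91.9% and 94.2%, and day 9 TET1 of DMSO cells at 2.57% and 2.98%. The near absence on day 4, the day 9 MBD3 calls and the BPK25 TET1 calls were therefore all present among the 771 sites outside the full windows.

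The strongest sites lay in the chromosome 10 window. At chr10:42384919-42385348 the TET1 −log10 q was 2022 with a fold enrichment of 7.34, and TET2 had 2567 and 9.17. All 5 antibodies were called there on day 0 in DMSO cells, with CTCF at 1985, MBD3 at 1737 and TET3 at 1123. No day 4 WT or DMSO list had a peak, while MBD3, TET1 and TET2 were called on day 4 under BPK25, at fold enrichments of 2.68, 2.06 and 3.73. On day 9 MBD3 was called in WT (1315) and DMSO cells (1413). The next were chr10:42393705-42393910 (TET1 −log10 q 1550), chr10:42386937-42387480 (1391) and chr10:42597498-42598233 (1345), the last with peaks in 19 lists and a day 4 DMSO TET1 or TET2 region 319 bp away.

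Away from chromosome 10, the strongest site was chr3:196625616-196625778, a region of 163 bp. Its TET1 −log10 q was 1205 with a fold enrichment of 19.3, TET2 had 733 and 12.5, and TET3 883 and 21.0. CTCF and MBD3 were called there on day 0 in WT (448 and 493) and DMSO cells (509 and 488), with fold enrichments of 3.69 to 7.29. TET1 was called under BPK25 on day 4 (229, fold enrichment 3.11), and no list of day 9 had a peak.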

How the data were processed

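Regions were selected, compared and named with earlier results of these data known. H9 chromatin immunoprecipitation samples (108, with 27 inputs) fell into 45 groups by the day, treatment and antibody that their titles give. The authors deposited 36 narrowPeak lists, each called on 3 pooled replicates per the labels, against a control whose input is not given in the sources used here. Per the submitters' processing notes, the build was hg19 and the tools included MACS2 2.1.2, SAMtools 1.9, Bowtie2 2.3.4, bedtools 2.25.0 and FastQC 0.11.7, with no roles stated. Per peak the authors deposited a fold enrichment (a linear ratio at the summit) and the −log10 p-value and −log10 q-value. The highest q-value was 0.050. These were used to describe, rank or filter peaks within a list.

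Summit rows (905026) were collapsed to 1 region per interval, keeping the highest −log10 q. An overlap of 1 bp sufficed for a region to count as present in another list. The 95% intervals of shares are Wilson intervals and cover nothing but counting error. Means over lists were tested with exact two-sided sign-flip permutation tests at 0.05, 1 value per list or pair, and no p-value across regions was computed. Lists were cut to equal length by −log10 q, and windows of at least 5 sites were defined, after the data were seen, as were the shares of coinciding calls over all TET1 regions. Pileups were solved under a Poisson law from the deposited fold enrichment and −log10 p up to 12, within 0.01, as a proxy for the depth that the lists do not state.

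Named regions were the 6 sites of highest TET1 −log10 q, the 4 with peaks in most lists, the 4 strongest with no followed peak, the 4 strongest with day 9 DMSO TET1 and TET3, the 4 strongest with day 0 DMSO MBD3 or CTCF, the 3 widest, and the 2 on each side of the rule's edge. The text names most of them. Fixed alternatives covered stricter peaks, other overlaps, recurrent regions, chromosomes, summits and leaving out days or antibodies. Nearest genes, gene lists and sequence features of build hg19 were not analysed here.

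The software was scipy 1.17.1, pandas 2.3.3, numpy 2.4.6 and matplotlib 3.10.9 under Python 3.11.15. An overlap count of 5166 was checked and found equal in bedtools 2.31.1. On simulated data a planted share of 29.7% was recovered as 29.7%.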

Additional observations from a re-analysis of the deposited data

How the results depend on the processing

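No paired analysis was possible because each list was called on 3 pooled replicates, and for the same reason no replicate could be left out. The number of sites was 575 at a −log10 q of at least 5 in all lists and 771 outside windows of at least 5 sites, an alternative added after the data were seen. The deficit against retained sites kept its sign and call in 19 of 19 alternatives (from -22.3 points with −log10 q of at least 5 in all lists to -4.95 without regions with peaks in at least 18 lists, p at most 0.0312, exact permutation test). In each alternative the sets were still split by day 4 DMSO TET1 and TET2 peaks. The BPK25 minus DMSO mean missed the threshold in each of 20 alternatives (lowest exact permutation p 0.203) and turned negative in 6: -0.174 at a −log10 q of at least 5 in all lists, -2.09 with that minimum in the followed lists only, -6.34 at 4-fold enrichment, -0.272 with the 5000 strongest regions per list, -5.40 without day 9 and -3.46 without TET1. The excess over TET1-only sites lost its call in 6 of 19: 6.60 at 4-fold enrichment, 3.98 without day 0, 13.8 without day 9, 11.4 without CTCF, 9.38 without MBD3 and 11.2 without TET2, where fewer lists enter the test in the last 5. The share with day 9 DMSO TET1 (2.83%) was 1.04% and 0.565% with −log10 q of at least 5 in all or in followed lists, 0.407% at 4-fold enrichment and 0.727% with the 5000 strongest regions. The median share over the 32 followed lists (8.32%) was 13.0% and 6.46% under those q minimums, 1.63% at 4-fold enrichment, 6.22% with 50% reciprocal overlap, 10.0% within 500 bp, 6.79% with the 5000 strongest regions and 6.16% outside full windows. The q minimum in all lists, 4-fold enrichment, 50% reciprocal overlap and the 500 bp setting chose the sites anew. Of shares in single lists, 144 moved by more than counting error and 197 did not. List length, which varies with unstated depth, limits each comparison of shares between lists.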
